A study of Arabidopsis thaliana with 18 samples.

Results

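The comparison of 250 Hz sound with silence rests on 6 of the 18 arrays of the study, 3 from plants exposed to 250 Hz and 3 from plants kept in silence, taken by their titles. All plants were Arabidopsis thaliana of the ecotype Col-0 with no mutation or transgene named, grown in continuous light and 20 days old, and whole rosettes were taken. The exposed plants stood for 1 h in a noiseless chamber with sound at 80 dB, and the control plants stood there for 1 h without sound. The 12 other arrays carry plants exposed in the same way to 500, 1000, 2000 or 3000 Hz, with 3 labelled as biological replicates of each, and the plants behind each array are not described further. Each array gives a log2 signal per probe set, a group of short probes for a transcript, and 22746 probe sets were tested. A single gene could be named for 13513 of them.

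Plants answer mechanical stimuli within minutes with calcium-dependent transcription of the so-called touch genes, among them calmodulin-like proteins and enzymes that remodel the cell wall. Jasmonate, a hormone made from fatty acids, carries many wound and touch responses. It switches on defence proteins and also the enzymes that turn the hormone over. BSMT1 belongs to the SABATH family of methyltransferases, which attach methyl groups to small plant acids, and it makes the volatile esters methyl salicylate and methyl benzoate.

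The 6 arrays had similar overall signal, with medians of 6.53 to 6.61 in silence and 6.55 to 6.63 at 250 Hz. The 3' minus 5' signal of the actin control probes, a sign of RNA quality, was 1.94 ± 0.02 in silence and 1.96 ± 0.15 at 250 Hz (SD, n = 3). The 24 probe sets for bacterial spike RNA averaged 5.41 to 5.50 in silence and 5.37 to 5.47 at 250 Hz. The 2 measured leaf photosynthesis markers averaged between 13.94 and 14.04 on every one of the 6 arrays, near the top of the scale. Of 3 root markers, the beta-glucosidase gene PYK10 had 8.67, 5.38 and 5.82 in silence and 6.64, 7.94 and 5.64 at 250 Hz, so its signal was uneven in both groups, while EXPA18 stayed between 4.61 and 5.01. No flower or seed marker could be named on the array.

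Silence was the more variable of the 2 groups, and every contrast with silence inherits this. The variance between arrays averaged 0.103 over the probe sets in silence and 0.0350 at 250 Hz. Control replicate 2 differed by at least 2-fold from the 250 Hz arrays at 217 to 303 probe sets, but from control replicates 1 and 3 at 1308 and 731. Control replicates 1 and 3 differed so from each other at 944, so these 2 controls were not alike either. Control replicate 1 differed so from the 250 Hz arrays at 1091 to 1664 probe sets and control replicate 3 at 864 to 973. In the main test, limma fitted to all 6 groups, the spread is shared over the groups, so standard errors and p values against silence are too small where the controls spread widely.

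Few genes passed the test at 250 Hz against silence, and they come from unlike functions: methyl ester synthesis, proline breakdown, a core histone, a strictosidine synthase-like protein and a RING-type protein. In limma's test, 10 of 22746 probe sets (0.044%) had a Benjamini-Hochberg adjusted p under 0.05, 8 higher (0.0352%) and 2 lower (0.00879%) at 250 Hz, and 3601 (15.8%) had an unadjusted p under 0.05. A single gene could be named for 5 of the higher and 1 of the lower probe sets.

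BSMT1 (AT3G11480) had log2 signals of 3.78, 4.49 and 3.98 in silence and 7.39, 8.11 and 6.01 at 250 Hz. All 3 sound arrays lay above all controls, by at least 1.52, but they were far apart from each other, with replicate 3 the lowest. The 12 arrays of the other frequencies lay between 3.73 and 5.14, within or close to the range of the controls. The difference from silence was 3.09 ± 0.39 (SE of the fit, adjusted p = 0.0056), about 8.5-fold.

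AT5G38710, a proline dehydrogenase that starts the mitochondrial breakdown of proline, had 5.77, 5.68 and 5.69 in silence and 6.87, 7.34 and 7.10 at 250 Hz. The groups were well apart, with tight controls. It rose by 1.39 ± 0.18 (adjusted p = 0.0069), 2.62-fold. The other frequencies gave 5.83 to 7.15, so every sound array of the study lay above the controls for this gene and the 250 Hz range overlapped theirs.

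AT2G37470, a gene for the core histone H2B, had 7.94, 8.10 and 8.14 in silence and 8.92, 8.92 and 8.95 at 250 Hz. Here the sound arrays differed by only 0.03 among themselves and lay 0.78 above the nearest control. The rise was 0.87 ± 0.10 (adjusted p = 0.0021), 1.83-fold, and the other frequencies reached from 8.20 to 8.76. Of 10 measured H2B genes it alone passed. HTB1, HTB2, HTB4 and HTB11 had differences of -0.23, 0.31, -0.08 and -0.01, and the median of the 10 was 0.03 against -0.02 over all probe sets. H2B genes are alike in sequence, and cross-hybridisation between them was not tested.

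AT4G23870 had 4.70, 5.20 and 4.81 in silence and 6.45, 5.90 and 6.52 at 250 Hz, a rise of 1.39 ± 0.21 (adjusted p = 0.021) that missed the threshold with the 12 arrays of silence, 250, 500 and 1000 Hz alone (adjusted p = 0.093). AT3G51450, which encodes a strictosidine synthase-like protein, had 8.06, 7.64 and 7.81 in silence and 8.80, 8.87 and 8.69 at 250 Hz, a rise of 0.95 ± 0.15 (adjusted p = 0.031). The sound arrays of AT3G51450 also lay above all 12 arrays of the other frequencies, which ran from 7.65 to 8.28, and none of the other 5 strictosidine synthase-like genes measured passed. AT3G30460, a RING-type zinc finger gene, was the named gene that fell, with 7.08, 6.44 and 6.79 in silence and 5.61, 6.07 and 5.70 at 250 Hz (-0.98 ± 0.16, adjusted p = 0.031). This call was also lost with those 12 arrays (adjusted p = 0.101). Its other sound arrays, at 5.69 to 6.46, mostly lay below the controls as well.

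The other 4 probe sets had no single gene name. The smallest p belonged to the probe set 264886_at, for which the annotation used here names no gene. It had 5.63, 5.53 and 5.74 in silence and 8.33, 8.35 and 8.22 at 250 Hz, with all 12 other sound arrays between 4.55 and 6.55. The groups stood far apart and each was tight, and the difference was 2.67 ± 0.23 (adjusted p = 8.6e-05), 6.35-fold. Fitted on the 6 arrays alone, this was the 1 probe set that passed (adjusted p = 0.00145), and the 6 named genes had adjusted p of 0.178 for AT5G38710 to 0.481 for AT3G30460. The remaining 3 were 246340_s_at, which matches several genes, and the unnamed 245294_at and 248306_at, with differences of 1.13, 0.69 and -0.95. An exact permutation test of 3 against 3 arrays cannot go below p = 0.10.

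**Figure D1:**
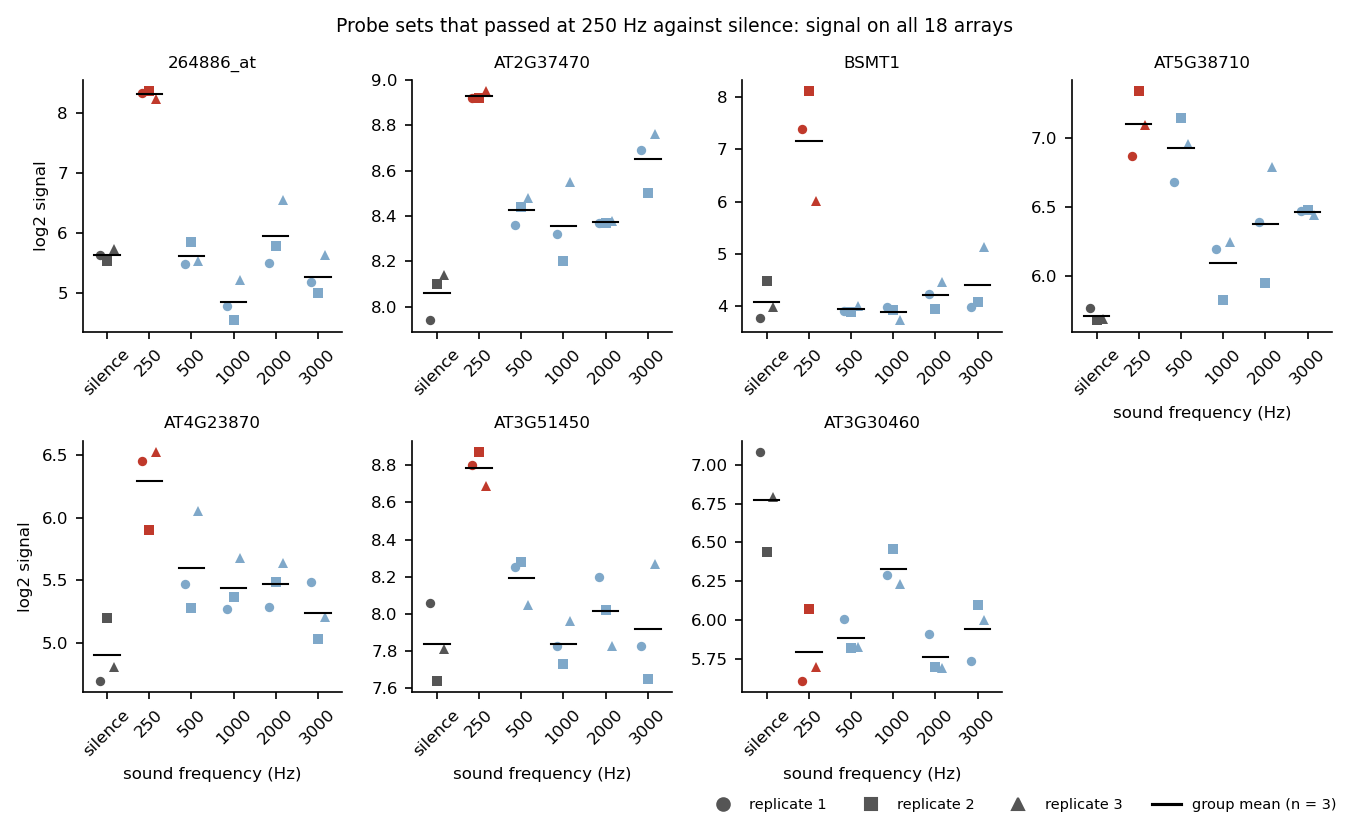
Log2 signal (vertical axes, each with its own range) on all 18 arrays, by sound frequency in Hz, for the 6 named genes and 1 unnamed probe set that passed at 250 Hz against silence; grey is silence, red 250 Hz, blue the other frequencies, marker shapes are replicates 1 to 3 and lines group means (n = 3). For 264886_at, BSMT1, AT2G37470 and AT3G51450 the 250 Hz arrays lie above every other array, whereas AT5G38710 and AT3G30460 have other sound arrays level with them.

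A wider view counts probe sets with no overlap between the groups. Every 250 Hz array lay above every control at 1375 probe sets (6.05%) and below every control at 1677 (7.37%). Most of these gaps were narrow. A gap over 0.25 was left at 212 higher and 71 lower probe sets, over 0.5 at 57 and 5, and over 1 at 7 and 0, so the wide gaps were mainly on the higher side. This is a description of the 6 arrays, with no test. For 3 against 3 exchangeable arrays, full separation in either direction has a probability of 0.10 with no difference between the groups.

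Among named genes the widest gaps on the higher side were those of BSMT1, AT5G38710 and CML38, followed by AT3G07350, AT4G30660, AT2G32150, AT2G37470, AT5G05600, AT3G62550 and AT2G43535. CML38 (AT1G76650), a calmodulin-like calcium sensor, had 4.75, 7.62 and 5.85 in silence and 8.92, 8.70 and 9.34 at 250 Hz, a difference of 2.91 ± 0.61 that missed the threshold (adjusted p = 0.080). The controls alone spanned over 2.8 units here, which sets it apart from the tight controls of AT5G05600. That gene encodes an oxygenase that inactivates jasmonate by hydroxylation, and had 7.92, 7.71 and 7.83 in silence and 8.67, 8.96 and 8.96 at 250 Hz (1.04 ± 0.26, adjusted p = 0.091). AT3G62550, of the universal stress protein family, had 9.14, 11.35 and 10.13 in silence and 12.07, 12.12 and 12.39 at 250 Hz. AT2G32150, a haloacid dehalogenase-like hydrolase, had 7.49, 8.69 and 7.03 against 9.50, 9.47 and 10.17. In both genes control replicate 2 was the control nearest to the sound arrays.

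The low temperature and salt-responsive RCI2-like proteins are small membrane proteins linked to cold and salt stress. AT4G30660 had 9.74, 10.37 and 10.12 in silence and 11.15, 11.27 and 11.16 at 250 Hz. Its neighbour AT4G30650 had 9.99, 10.00 and 9.87 against 11.24, 11.37 and 10.68. Both lay beyond the controls by at least 0.68, while AT1G57550, AT2G38905 and AT2G24040 of the same family, at differences of -0.08, -0.08 and 0.06, overlapped them. None of the 5 passed against silence.

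On the lower side the 10 widest gaps, from 0.38 to 0.52, belonged to AT5G42760, AT2G36630, AT1G68570, HYH, AT1G43910, GLR3.5, AT1G15410, AT1G79160, AT2G19650 and AT2G18910. HYH (AT3G17609), a bZIP factor of light signalling and homologue of HY5, had 9.05, 5.94 and 7.43 in silence and 5.30, 5.53 and 5.29 at 250 Hz. AT5G42760, of a methyltransferase family, had 9.66, 6.20 and 7.47 against 5.48, 5.68 and 5.03. Both had controls spread over more than 3 units, with replicate 2 the lowest, and neither passed (adjusted p = 0.102 and 0.092). AT1G68570, a transporter of the NPF family that carries nitrite and gibberellin, had tighter values of 9.55, 8.70 and 9.42 against 8.13, 8.26 and 8.20 (-1.03 ± 0.20, adjusted p = 0.075).

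Gene families were described by counts and medians beside those over all 22746 probe sets, whose median difference was -0.02 with 10098 positive. In the SABATH family 10 of 15 genes were positive, 4 (26.7%, against 6.05% of all probe sets) lay wholly above the controls and 0 below, and BSMT1 alone passed, with a family median of 0.02. JMT (AT1G19640), which methylates jasmonic acid, was the next, with 6.60, 6.44 and 5.84 in silence and 7.83, 7.39 and 6.72 at 250 Hz (1.02 ± 0.28, adjusted p = 0.105). Apart from BSMT1, JMT and AT3G21950 (0.38), the differences in the family ran from -0.46 for AT4G36470 to 0.17.

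In the 4 measured genes of proline metabolism and its bZIP regulators, AT5G38710 passed and BZIP53 (AT3G62420), a factor that activates proline dehydrogenase genes, lay wholly above the controls with 9.51, 10.54 and 10.10 against 10.79, 10.65 and 10.91 (0.73 ± 0.18, adjusted p = 0.085). The median of the 4 was 0.46. Of 17 sugar starvation loci listed, 3 could be measured. All 3 lay wholly above the controls, where 6.05% of all probe sets lay, with a median of 1.04, and 0 passed. AT3G15450, a dark-inducible gene, had 8.49, 12.54 and 10.32 in silence and 12.79, 12.78 and 13.40 at 250 Hz. MCCA, a subunit of the leucine-degrading methylcrotonyl-CoA carboxylase, had 7.53, 8.26 and 7.86 against 8.62, 8.45 and 9.69.

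Of 12 touch and mechanical response loci listed, 4 could be measured. All 4 were positive, 3 of them wholly above the controls, where 6.05% of all probe sets lay. Their median was 2.06, with 0 passing. EXO (AT4G08950), a cell expansion gene, had 8.93, 12.72 and 8.75 in silence and 12.86, 12.88 and 13.22 at 250 Hz (2.85 ± 0.67, adjusted p = 0.082), with control replicate 2 only 0.14 below the lowest of the sound arrays. Of 43 rapid stress response loci listed, 13 could be measured, mostly WRKY, CML and PUB genes. Of the 13, 12 were positive and 4 lay wholly above the controls, with a median of 0.70 and 0 passing. Of 16 cold-regulated loci listed, the 4 measured were LTI30, COR47, COR15A and COR15B. These were all positive, with a median of 0.80 and 3 wholly above the controls. LTI30, a dehydrin, had 6.85, 6.97 and 6.05 against 7.51, 7.64 and 7.97 (1.08 ± 0.36, adjusted p = 0.158).

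Glutamate receptor-like channels, cation channels that take part in wound-induced calcium signals, lay the other way. All 8 measured genes had negative differences, as had 12571 of all 22746 probe sets. Of the 8, 5 lay wholly below the controls (62.5%, against 7.37% of all probe sets), the median was -0.22, and 0 passed. GLR3.5 had 6.66, 6.52 and 6.63 in silence and 5.98, 5.99 and 6.11 at 250 Hz (-0.58 ± 0.11, adjusted p = 0.069). GLR1.4 had 6.41, 6.06 and 7.49 against 5.80, 5.93 and 5.94. GLR3.3 had 6.87, 6.45 and 6.03 against 6.48, 6.44 and 6.41, so this member overlapped the controls entirely.

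Plastid-encoded transcripts, which code for parts of the photosystems, the ATP synthase, the NDH complex and the plastid ribosome and polymerase, were also mostly lower in signal. Of 69 measured, 68 had negative differences, 13 lay wholly below the controls (18.8%, against 7.37% of all probe sets), the median was -0.33 and 0 passed. petB, a cytochrome b6f subunit, had 13.11, 13.08 and 13.21 in silence and 12.62, 12.46 and 12.94 at 250 Hz (-0.46 ± 0.09, adjusted p = 0.074). psbH, a small photosystem II subunit, had 9.49, 9.59 and 9.64 against 8.73, 8.74 and 9.39. rps16, a plastid ribosomal protein gene, had 7.22, 7.11 and 6.94 against 6.04, 6.41 and 6.61.

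The 250 Hz arrays were not alike in this respect. The mean deviation of the 69 genes from their own means over the 18 arrays was -0.57, -0.52 and -0.13 on 250 Hz replicates 1, 2 and 3, against -0.17, 0.04 and -0.15 in silence, so replicate 3 lay with the controls. Without 250 Hz replicate 1 the median was -0.22, without replicate 2 it was -0.28, and without replicate 3 it was -0.48 with 12 genes passing lower. In that last fit 21 of all 22746 probe sets passed lower. Among 24 photosynthesis genes of the nucleus the median was -0.08, with 18 negative and 3 wholly below the controls (12.5%, against 7.37% of all probe sets). In whole rosettes, fewer plastids or cells of a type and less RNA per cell cannot be told apart.

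**Figure D2:**
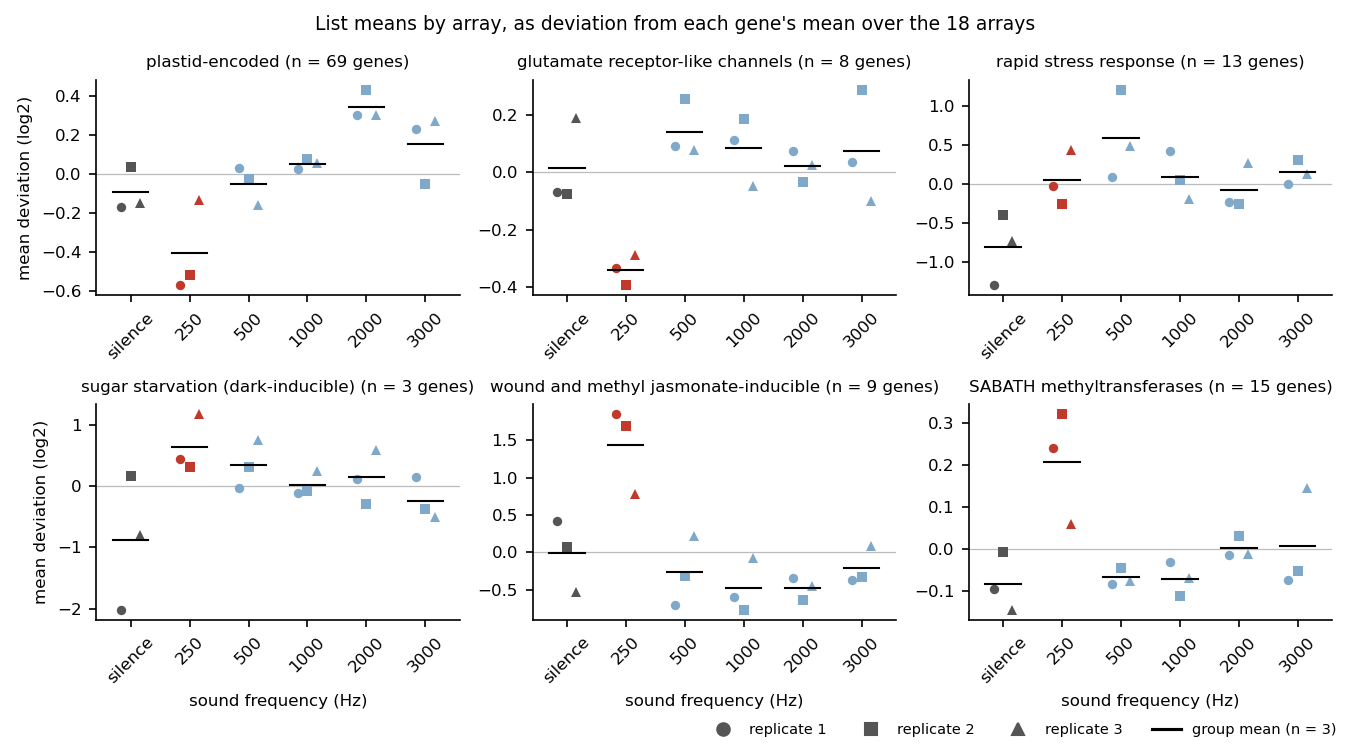
Mean deviation (log2, vertical axes with their own ranges) of 6 gene lists from each gene's mean over the 18 arrays, by sound frequency in Hz; each point is 1 array, shapes are replicates 1 to 3, lines are group means (n = 3), grey is silence, red 250 Hz and blue the other frequencies. The 8 glutamate receptor-like genes lie at -0.39 to -0.29 at 250 Hz, below all other arrays, and the 69 plastid-encoded genes lie at -0.57 and -0.52 on 2 of the 3 arrays at 250 Hz.

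Several other families had medians close to that of the array. The 51 UGT glycosyltransferases had a median of -0.04 with 4 wholly above (7.84%, against 6.05% of all probe sets) and 3 wholly below the controls (5.88%, against 7.37%). The 23 cytochrome P450 genes (median 0.02), 14 glutathione transferases (0.03), 29 serine carboxypeptidase-like genes (0.00), 24 trichome birefringence-like genes (0.00) and 23 mitochondrial-genome probe sets (0.07) had 0 passing. Of 22 beta-glucosidases, enzymes that release aglycones from stored glucosides, 17 were positive, as were 10098 of all 22746 probe sets. Of the 22, 4 lay wholly above the controls (18.2%), none below, and the median was 0.07. BGLU45 had low signals of 4.03, 4.05 and 3.85 in silence and 4.79, 4.52 and 4.58 at 250 Hz (0.65 ± 0.11, adjusted p = 0.060).

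Of the lists with 0 passing in limma's test, an unadjusted p under 0.05 was reached by 4 of 4 touch, 7 of 13 rapid stress, 3 of 4 cold-regulated, 3 of 3 sugar starvation, 3 of 8 glutamate receptor-like and 31 of 69 plastid-encoded genes. It was reached by 9 of 51 UGT, 2 of 23 P450, 1 of 14 glutathione transferase, 4 of 29 carboxypeptidase-like, 2 of 24 trichome birefringence-like and 6 of 22 beta-glucosidase genes, and by 0 of 23 mitochondrial-genome probe sets. Over all probe sets the share was 15.8%. Members of a list share arrays and are not independent.

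Leaving out a control array changed the results by very different amounts. Without control replicate 1, 11 probe sets passed (0.0484%), all higher, and 7 of the 10 first called were among them. Without control replicate 3, 8 passed (0.0352%), 7 higher (0.0308%) and 1 lower (0.0044%), with 6 of the 10 among them. Without control replicate 2, 2175 passed (9.56%), 943 higher (4.15%) and 1232 lower (5.42%), and all 10 were among them. At 1947 of the 2175 (89.5%), control replicate 2 lay nearer to the 250 Hz mean than to the mean of the other controls. At 877 of the 2175 all 3 sound arrays still lay beyond all 3 controls. Of all probe sets, 6.05% lay wholly above and 7.37% wholly below the controls. The 2175 were picked by a fit without control replicate 2, which favours such positions. It also used the same 250 Hz arrays and the other controls, which favours non-overlap. The 89.5% and the 877 are therefore descriptions and no test, and the share over all probe sets that matches the 89.5% is not given. Non-overlap is easier to meet with 2 controls. Without control replicate 1, 2 or 3 the sound arrays lay above both others at 2378 (10.5%), 3248 (14.3%) and 2074 (9.12%) probe sets, and below both at 2684 (11.8%), 4071 (17.9%) and 2942 (12.9%).

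BSMT1, AT5G38710 and AT2G37470 passed whichever control was left out, with adjusted p of at most 0.046. AT5G38710 and AT2G37470 also held when any 250 Hz array was removed, while BSMT1 missed the threshold without 250 Hz replicate 1 (adjusted p = 0.051). AT4G23870 missed it without control replicate 1, control replicate 3 or 250 Hz replicate 1 (adjusted p = 0.085, 0.117 and 0.190), and AT3G30460 without the same arrays (0.098, 0.128 and 0.242). AT3G51450 missed it without control replicate 3, 250 Hz replicate 1 or 250 Hz replicate 2 (0.128, 0.211 and 0.095). The probe set 264886_at also held through all of these fits, so that 3 probe sets in all did.

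**Figure D3:**
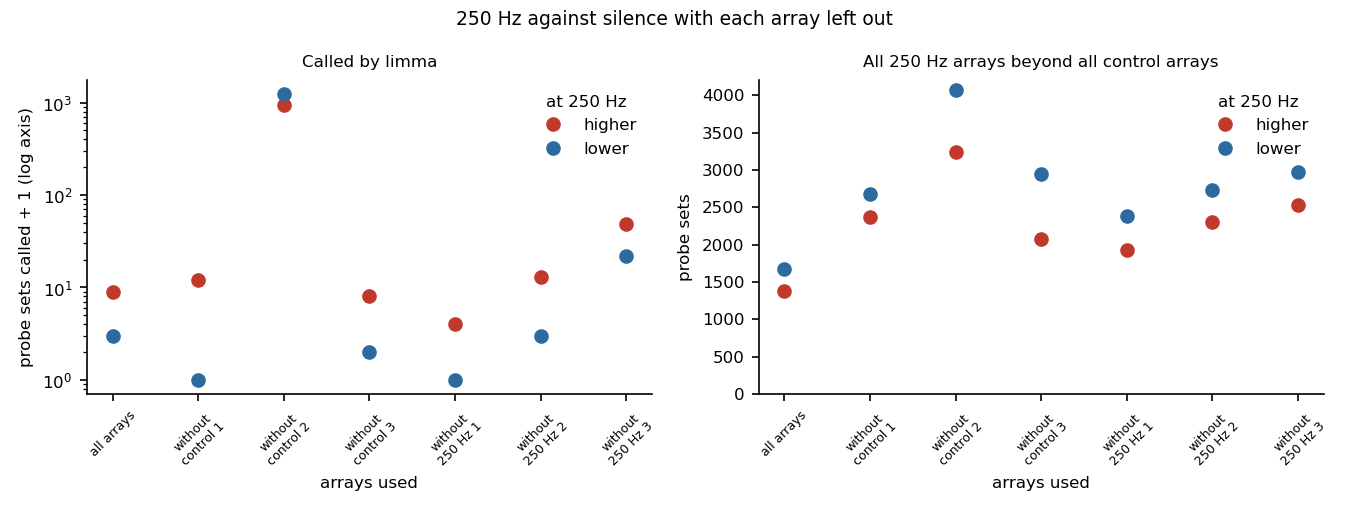
Probe sets called by limma at an adjusted p under 0.05 (left, number plus 1 on a log axis) and probe sets whose 250 Hz arrays all lie beyond all controls (right, number on a linear axis from 0), with all arrays and with each of the 6 arrays left out; red is higher and blue lower at 250 Hz. Without control replicate 2 the calls reach 943 higher and 1232 lower, and the non-overlap counts 3248 and 4071.

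Genes of touch, starvation, cell wall and peptide signalling were among those that passed without control replicate 2. There EXO differed by 4.15 (adjusted p = 5.6e-10), CML38 by 3.69 (adjusted p = 0.00053) and AT3G15450 by 3.58 (adjusted p = 0.00012). The autophagy gene ATG8E had 6.91, 10.32 and 8.53 in silence and 10.45, 10.05 and 10.39 at 250 Hz, a difference of 1.71 with all controls and of 2.58 without control replicate 2 (adjusted p = 0.00018). Control replicate 2 was the highest control for all 4 genes, while replicate 3 lay near replicate 1 for EXO and between the others for CML38, AT3G15450 and ATG8E. In limma's test none of the 4 passed without control replicate 1 or 3. Adjusted p was then 0.219 and 0.277 for EXO, 0.193 and 0.277 for CML38, and 0.227 and 0.277 for AT3G15450.

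RALFL33, which encodes a RALF-like signalling peptide, had 10.32, 12.18 and 10.59 in silence and 12.40, 12.39 and 12.43 at 250 Hz, and EXGT-A3, a xyloglucan endotransglucosylase, had 9.69, 11.69 and 10.13 against 11.76, 11.84 and 11.91. Without control replicate 2 they differed by 1.95 and 1.93 (adjusted p = 9.3e-07 and 1.9e-06). Of the 29 XTH and expansin genes, 6 passed higher and 2 lower without that array and 0 with it. Of all probe sets, 4.15% passed higher and 5.42% lower without it. The cytokinin response regulators ARR15 and RR16 passed lower without it, at -1.22 and -1.14 (adjusted p = 0.00013 and 0.0098), against -0.81 and -0.87 with all controls. HYH differed by -2.87 and AT5G42760 by -3.17 (adjusted p = 0.0012 and 0.0013). With control replicate 1 or 3 left out instead, none of the genes in this paragraph passed. For EXO, CML38, AT3G15450, ATG8E, RALFL33 and EXGT-A3 the difference between 250 Hz and the mean of 500 and 1000 Hz ran from -0.24 to 0.44, and none passed.

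**Figure D4:**
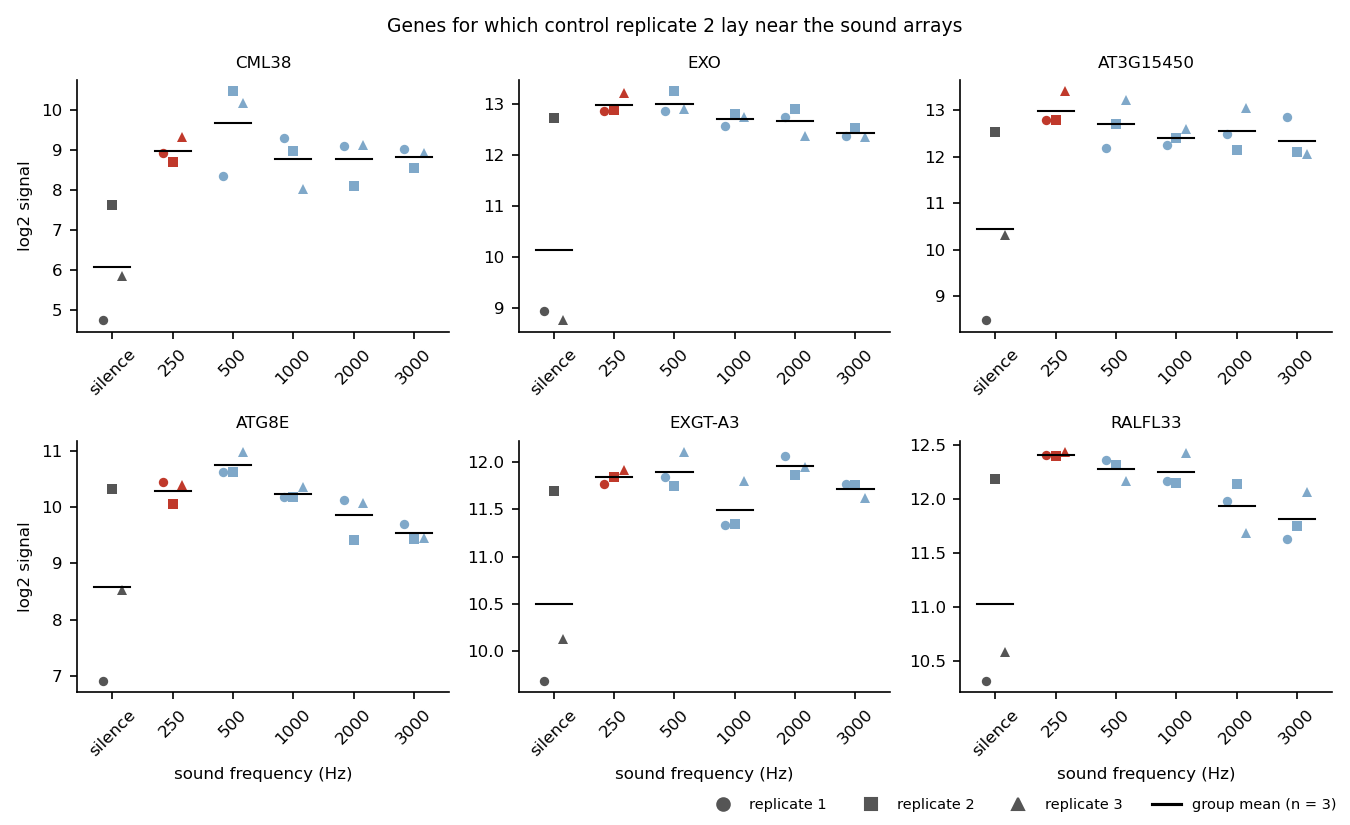
Log2 signal (vertical axes, each with its own range) on all 18 arrays, by sound frequency in Hz, for 6 genes with unlike controls; grey is silence, red 250 Hz, blue the other frequencies, shapes are replicates 1 to 3 and lines group means (n = 3). For EXO, control replicate 2 lies at 12.72 near the sound arrays, and the other controls lie at 8.93 and 8.75.

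A test of 250 Hz against the mean of 500 and 1000 Hz does not use the control arrays. It asks what differs at this frequency from other sound, with arrays whose spike signals were closest to those at 250 Hz, at 5.48 to 5.59 against 5.37 to 5.47. These ranges do not overlap, and the part of labelling in the results was not tested. In limma's test 553 of 22746 probe sets passed (2.43%), 336 higher (1.48%) and 217 lower (0.954%) at 250 Hz. Centring each array on its median turned the split to 257 higher and 438 lower, whereas quantile normalization gave 316 higher and 197 lower. Without 250 Hz replicate 1, 5 probe sets passed, all higher, and without replicate 2 39 passed. Of the 553, 167 higher and 73 lower probe sets also had all 250 Hz arrays beyond all controls. Of the 10 probe sets called against silence, 7 passed here too, all higher. Both contrasts use the same 250 Hz arrays, which favours such overlap. These counts are therefore a description and no test.

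Genes known to be induced by wounding and methyl jasmonate were among the largest differences on the higher side. They are given as a list put together after their values had been seen, so its counts are a description. The separate list of jasmonate synthesis and response genes, of which 2 could be measured, had 0 passing, 1 positive and a median of -0.04 against 500 and 1000 Hz. Against silence both were positive, with a median of 0.73, and 0 passed or lay wholly above the controls. THI2.1 (AT1G72260), a thionin with antimicrobial activity, had 11.39, 9.50 and 8.09 at 250 Hz, 7.64, 6.27 and 5.60 in silence, and 3.97 to 8.12 at the other frequencies. It was 3.56 ± 0.83 higher than at 500 and 1000 Hz (adjusted p = 0.037), while against silence the difference of 3.16 ± 0.95 missed the threshold (adjusted p = 0.129). The 3 arrays at 250 Hz differed among themselves by over 3 units.

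BSMT1 was 3.26 ± 0.34 higher than at 500 and 1000 Hz (adjusted p = 0.00041) and held there when any single array of 250, 500 or 1000 Hz was removed. JAL23 (AT2G39330), a jacalin-related lectin, had 10.50, 10.11 and 8.74 at 250 Hz and 6.25 to 8.36 at the other frequencies. Its controls, at 9.69, 8.05 and 7.05, overlapped the 250 Hz range, so it differed from the other frequencies (2.42, adjusted p = 0.036) and not detectably from silence (1.52, adjusted p = 0.258). AT4G17470, of an alpha/beta hydrolase family, had 10.41, 10.34 and 9.25 at 250 Hz, 9.13, 9.44 and 7.68 in silence and 6.70 to 8.92 elsewhere (2.65 against 500 and 1000 Hz, adjusted p = 0.012).

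JRG21 (AT3G55970), like AT5G05600 an oxygenase that hydroxylates jasmonate, was 1.87 higher than at 500 and 1000 Hz (adjusted p = 0.027), with 7.37, 7.59 and 6.08 at 250 Hz and 6.41, 6.12 and 5.08 in silence. AT5G05600 was 1.12 higher (adjusted p = 0.023). In all, 6 of the 9 measured genes of this list passed higher against 500 and 1000 Hz, where 1.48% of all probe sets did, and 8 were positive, with a median of 1.87 against -0.02 over all probe sets. The members were picked with these values known, so the counts are no test of the list. Against silence 1 of the 9 passed, 5 lay wholly above the controls (6.05% of all probe sets) and the median was 1.14. The jasmonate oxidase AT2G38240 and JMT were positive without passing (0.78 and 0.86), and AT3G11180, with the lowest signals of the 9, was -0.21.

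The list's mean deviation was 1.85, 1.69 and 0.78 on the 250 Hz arrays, 0.42, 0.07 and -0.53 in silence, and between -0.77 and 0.22 on the 12 other sound arrays. For these members, picked with their values known, the 250 Hz arrays were the highest of the 18, and replicate 3 was again the nearest to the rest. Of the list's members named by the rule for this contrast, THI2.1, JAL23 and AT4G17470 missed the threshold without 250 Hz replicate 1 (adjusted p = 0.228, 0.210 and 0.110) and without replicate 2 (0.110, 0.141 and 0.072).

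**Figure D5:**
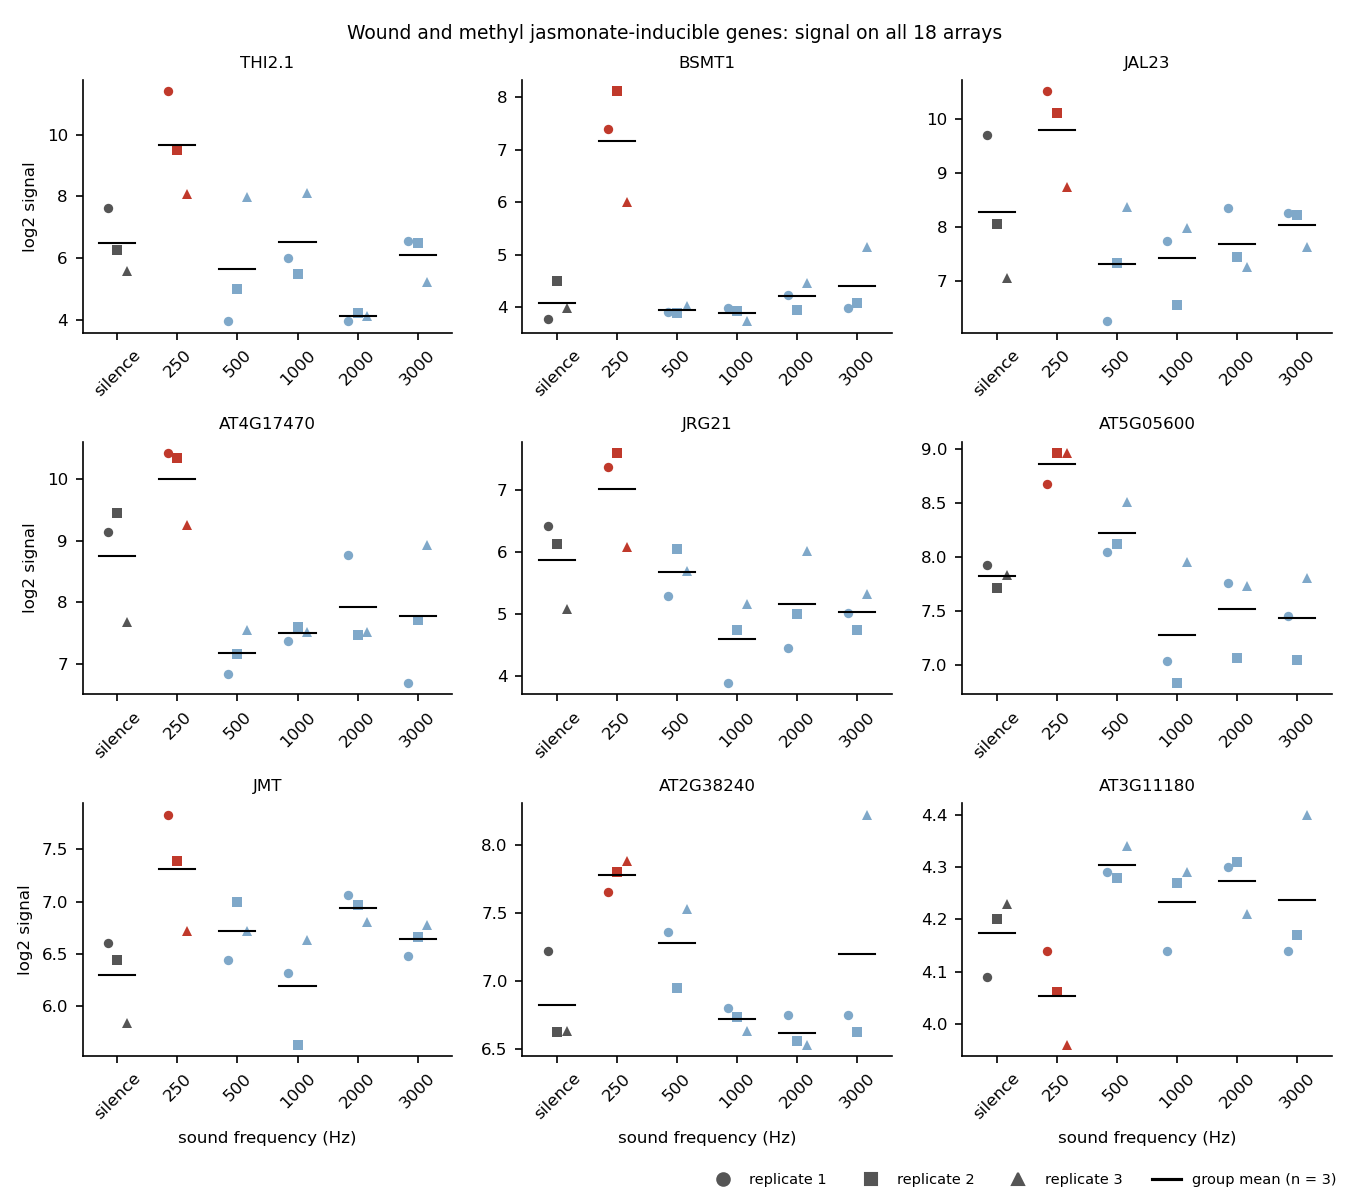
Log2 signal (vertical axes, each with its own range) of 9 wound and methyl jasmonate-inducible genes on all 18 arrays, by sound frequency in Hz; grey is silence, red 250 Hz, blue the other frequencies, shapes are replicates 1 to 3 and lines group means (n = 3). BSMT1 is the gene whose 250 Hz arrays lie apart from every other array by the widest margin, while for JAL23 and AT4G17470 the controls reach into the 250 Hz range.

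A cluster of defensin-like genes of the trypsin inhibitor type on chromosome 2, also noticed after the values were seen, was higher as well. AT2G43535 had 8.60, 8.68 and 8.64 at 250 Hz, 7.81, 7.88 and 7.02 in silence and 6.87 to 8.28 elsewhere, a difference of 1.29 ± 0.17 from 500 and 1000 Hz (adjusted p = 0.0053). AT2G43530 and AT2G43550 rose by 0.97 and 1.26 in the same contrast (adjusted p = 0.020 and 0.037). These were the 3 measured of 5 loci listed. All 3 lay wholly above the controls, where 6.05% of all probe sets lay, and their differences from silence of 0.84 to 1.07 missed the threshold. They were picked with their values known, so this count is no test. Cross-hybridisation within the cluster was not tested.

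AGL42 (AT5G62165), a MADS-box factor of the floral transition, had 6.32, 6.81 and 6.09 at 250 Hz and 3.97 to 5.29 at the other frequencies, with 5.11, 6.31 and 4.40 in silence (2.17 against 500 and 1000 Hz, adjusted p = 0.0092). The RCI2-like genes AT4G30660 and AT4G30650 were 1.04 and 1.09 higher than at 500 and 1000 Hz (adjusted p = 0.045 for both). AT3G21950, another SABATH gene, rose by 0.84 (adjusted p = 0.034), and BGLU45 by 0.70 (adjusted p = 0.0092). AT2G37470 was 0.54 higher (adjusted p = 0.011), whereas AT5G38710 was 0.59 higher and missed the threshold (adjusted p = 0.058).

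The 5 named genes with the largest falls against 500 and 1000 Hz were AT2G34930, of a leucine-rich repeat disease resistance family, AT3G16670, AT2G27660, AT2G20142, which carries a TIR domain, and AT1G58420. Their differences were -1.75, -1.41, -1.32, -1.29 and -1.27, with adjusted p from 0.016 to 0.048. AT2G34930 had 6.19, 6.31 and 7.25 at 250 Hz and 6.69, 7.16 and 6.31 in silence, against 6.40 to 9.28 at the other frequencies. AT2G27660 had 6.30, 6.07 and 6.81 at 250 Hz and 5.96, 6.16 and 7.05 in silence. For all 5 the 250 Hz range overlapped that of the controls, and none passed against silence. No probe set passed lower without 250 Hz replicate 1, so these 5 calls were lost without that array.

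Plastid-encoded genes made up part of the lower side, with 16 of 69 passing lower, where 0.954% of all probe sets did, none passing higher, a median of -0.41 and 6 positive. psbT and psbB, photosystem II genes, were lower, at -1.08 and -0.95 (adjusted p = 0.0099 and 0.011), and so was ndhG of the NDH complex, at -1.05 (adjusted p = 0.019). The photosystem genes held 8 of these calls among 20 measured genes, the ATP synthase and cytochrome b6f genes 3 of 12, the NDH genes 2 of 10, and the ribosome and polymerase genes 0 of 19. Since no probe set passed lower without 250 Hz replicate 1, none of these calls held without that array.

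Among the 8 glutamate receptor-like channels, GLR2.8, GLR2.7 and GLR1.4 passed lower against 500 and 1000 Hz in limma's test, where 0.954% of all probe sets did. Their differences were -1.12, -1.08 and -0.92 (adjusted p = 0.039, 0.037 and 0.046). These calls, too, were lost without 250 Hz replicate 1, where no probe set passed lower. GLR2.7 had 6.63, 6.40 and 6.95 at 250 Hz and 7.03, 7.01 and 8.40 in silence. GLR2.8 had 4.46, 4.23 and 4.35 against 4.22, 4.73 and 4.82 in silence, near the bottom of the scale. GLR3.5, the member with the widest gap from the controls, was -0.12 and did not pass here (adjusted p = 0.475).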

How the data were processed

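The members and gene lists were chosen with earlier results of these data known. The deposited log2 signals of the authors, 1 per probe set and array, were used as given. Affymetrix Expression Console 1.1, RMA and MAS5 are named per the submitters' processing notes, and which of them made the values is not given in the sources used here. RNA was extracted with a plant kit and labelled as biotinylated cRNA, per the labels' protocols. Of 22810 probe sets, 64 control probe sets were set aside and 22746 tested. The platform annotation and RefSeq (TAIR10.1) gave 13513 probe sets a single gene, 503 several and 8730 no name here. No coordinates or sequences were used.

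All 18 arrays in 6 groups were fitted with limma 3.58.1 in R 4.3.3 (lmFit, eBayes with intensity trend), for 250 Hz minus control and 250 Hz minus the mean of 500 and 1000 Hz. Tests were two-sided, with Benjamini-Hochberg adjustment over all probe sets and a threshold of 0.05. Errors are the fit's standard errors, except where marked SD. The number of arrays limits the precision. The labels call the arrays biological replicates, and how plants were grouped is not given in the sources used here.

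Of 53 lists with any measured member, 42 had at least 3. Further lists, of histone H2A, abscisic acid response, flower and meristem identity, seed, MYB, and ERF and DREB genes, had no measured member. The measured lists are described by counts and medians, with no set test. Lists of organelle genes, transporters, beta-glucosidases, carboxypeptidase-like, TBL, PUB, autophagy, GLR, ALDH, RALF, response regulator and nuclear photosynthesis genes were added after the annotation was seen. Lists of jacalin-related lectins, wound and methyl jasmonate-inducible, defensin-like and RCI2-like genes were added after values were seen.

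Genes were named by a rule: the 3 marker genes, every single gene that passed against control, the 10 higher and 10 lower with the widest gap from the controls, up to 6 higher and 6 lower that passed without any 1 control, the 2 members with the smallest p of each list, and the 5 higher and 5 lower with the largest passing difference from 500 and 1000 Hz. Other genes named were chosen after their values were seen, JRG21, GLR2.7, GLR2.8, psbT and psbB among them. Alternatives were other sets of arrays, median centring, quantile normalization, variance models, array weights, a signal minimum of 5, a replicate block and leaving out arrays. On simulated data for 250 Hz against control (22746 probe sets, 50 changed for each size), the fit recovered 56% of changes of 0.5, 86% of changes of 1, 96% of changes of 1.5 and 98% of changes of 2, with 9 unchanged probe sets called. The simulation gave all groups the same spread for a probe set, whereas silence was the more variable group in the data. Recovery with such unequal spread was not tested.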

Additional observations from a re-analysis of the deposited data

Results flagged for a closer look

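The genes below were named for their difference from silence, their list or their difference from other sound. Each differed between 250 Hz and the mean of 500 and 1000 Hz in limma's test over all probe sets (adjusted p under 0.05). The contrasts share the 250 Hz arrays, so their results are not independent. On the higher side, in log2 units, these were THI2.1 (3.56), BSMT1 (3.26), AT4G17470 (2.65), JAL23 (2.42), AGL42 (2.17), AT2G43535 (1.29), AT5G05600 (1.12), AT4G30650 (1.09), AT4G30660 (1.04), AT2G43530 (0.97), UGT76E12 (0.97), AT4G23870 (0.77), AT3G51450 (0.77), BGLU45 (0.70), SWEET16 (0.58), AT2G37470 (0.54), CYP71B28 (0.49), ALDH10A8 (0.34) and BGLU27 (0.33). UGT76E12 had 4.01, 3.69 and 3.54 in silence and 4.43, 5.08 and 4.63 at 250 Hz. SWEET16, a vacuolar sugar transporter, had 6.47, 6.03 and 5.86 against 6.56, 6.93 and 6.72. On the lower side they were AT2G34930 (-1.75), AT3G16670 (-1.41), AT2G27660 (-1.32), AT2G20142 (-1.29), AT1G58420 (-1.27), ndhG (-1.05), GLR1.4 (-0.92), ndhE (-0.81), atpF (-0.73), psbH (-0.63), petB (-0.49) and psbZ (-0.41). None of these lower calls held without 250 Hz replicate 1.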

How the results depend on the processing

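The count of 10 at 250 Hz against silence became 1 with the 6 arrays alone and 141 with array weights (97 higher, 44 lower), and leaving out 1 array gave 3 to 2175, the highest without control replicate 2. It was 3 without 250 Hz replicate 1 and 69 without 250 Hz replicate 3. With the 6 arrays alone and 1 control left out it was 1 to 535. The other alternatives gave 7 to 12, and no lower call was left with the 12 arrays of silence, 250, 500 and 1000 Hz (7 higher, 0 lower) or with a replicate block (9 higher, 0 lower), where AT3G30460 had adjusted p of 0.101 and 0.077. The call of AT4G23870 was lost with the 12 arrays (0.093) and that of AT3G51450 with the block (0.061). Leaving out 1 array gave 1929 to 3248 probe sets wholly above and 2382 to 4071 wholly below the controls. Against 500 and 1000 Hz, 553 became 1060 against all 4 other frequencies and 1045 with the 9 arrays alone, and leaving out 1 array gave 5 to 835, with 5, 39 and 835 without 250 Hz replicates 1, 2 and 3, 201 without 500 Hz replicate 2, and 220 and 188 without 1000 Hz replicates 1 and 2. Signs of small differences turned without control replicate 1 for AT3G57010 (range over arrays left out -0.33 to 0.045), AT2G31790 (-0.39 to 0.08) and BCAT4 (-0.507 to 0.0133), without 250 Hz replicate 1 for EXPA18 (-0.128 to 0.0717), and for PYK10 without control replicate 2 (-0.505), control replicate 3 (-0.285) or 250 Hz replicate 2 (-0.483), against 1.14 without control replicate 1. The cause was not tested. Deviations of same-numbered control and 250 Hz arrays correlated at 0.136, -0.176 and 0.142. Arrays with unlike numbers correlated at -0.399 to 0.389, so these values cannot show whether the numbers pair the arrays. A replicate block gave 9 calls against silence and 432 against 500 and 1000 Hz. The control spread limits what 3 arrays a group can show.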
